A study of Mus musculus with 9 samples.

Results

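The 10 genes described here are the DNA-binding factors of the Wnt pathway (Lef1, Tcf7, Tcf7l1 and Tcf7l2), their partner beta-catenin (Ctnnb1), the scaffolds of its destruction complex (Axin1 and Axin2) and feedback inhibitors (Znrf3, Rnf43 and Nkd1). They were taken by symbol from the 52550 gene identifiers of the exon count table, and each symbol matched 1 identifier. Messenger RNA was counted in V6.5 cells, a mouse embryonic stem cell line, in 4 libraries of wild-type cells (WT) and 5 libraries labelled as a double knockout of KLF2 and KLF4 (DKO). Both groups were grown with 15% FBS, LIF, an inhibitor of GSK and an inhibitor of MEK, and no library without the inhibitors was compared; GSK inhibitors are known to activate this pathway. The libraries were made with the QuantSeq kit, which reads the 3' ends of polyadenylated transcripts. The labels give neither the deleted part of either gene, nor whether the libraries of a group came from separate cultures or clones, so the p-values measure only the spread between these libraries, which may be technical.

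In canonical Wnt signalling a complex of Axin, APC, GSK3 and casein kinase 1 marks beta-catenin for degradation, and a Wnt signal or a GSK inhibitor lets beta-catenin build up and bind TCF/LEF factors on DNA. In embryonic stem cells TCF7L1 is known mainly as a repressor of naive pluripotency genes that beta-catenin relieves, while TCF7 and LEF1 are known mainly as activators. Axin2, Znrf3, Rnf43, Nkd1 and Lef1 itself are known as genes that beta-catenin and TCF/LEF switch on in many tissues, and all but Lef1 of these dampen the pathway in turn.

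Klf2 and Klf4, the genes the knockout is named for, had higher counts where the label says DKO. Klf2 had 3042 to 3297 counts in the WT libraries and 3750 to 4044 in those labelled DKO, and Klf4 had 5085 to 6183 and 9385 to 10778. These counts do not show a loss of either transcript. As the deleted parts are not given, 3' reads outside them can neither bear out the label nor go against it. Every direction given here is therefore between labels, DKO relative to WT. Library totals ran from 6035642 to 7098530 counts, so 3 counts in 1 library, used as the floor, came to 0.423 to 0.497 CPM, which are counts scaled to a common library size. The first principal component of all tested genes (69.2% of the variance) separated the groups, and on the second (6.1%) DKO 3 lay at 23.1 and the other 4 libraries labelled DKO between -14.0 and 6.22. Results on the members are given with and without DKO 3 where its removal moves them. Summed embryonic stem cell markers stood at 2011 to 2086 CPM in WT and 2584 to 2737 in DKO. Of the 6, 4 were called higher (edgeR adjusted p under 0.05), against 23.9% of all tested genes. Zfp42 was called lower, from 333.2 to 289.6 CPM, and Pou5f1 did not pass. Pou5f1 had only 23.9 ± 0.552 and 21.5 ± 3.16 CPM (SD, n = 4 and 5). It has close processed copies, and their part in this low level was not tested. Of 12 fibroblast markers, 3 had no reads in any library (Col6a1, Lum and Fap), and the summed level was 11.8 to 15.6 CPM in WT and 5.09 to 8.15 in DKO. Most of the WT sum came from Col5a1 (means 9.77 and 3.64 CPM), the only marker of this list that was tested. Col1a1 had 18 counts over the WT libraries and 19 over those labelled DKO, Pdgfrb 36 and 37 and Thy1 22 and 3. The 6 mesoderm markers summed to 16.9 to 20.9 CPM in WT and 3.71 to 6.42 in DKO, the 6 neural ones to 88.7 to 107.9 and 44.4 to 68.3, and the 6 primitive endoderm ones to 2.50 to 3.55 and 4.10 to 5.53. Within the last list Sox7 had 4 counts over the WT libraries and 94 over those labelled DKO, and Foxa2 had 10 and 26. Pdgfra had 9 and 10, Sox17 28 and 4, Gata4 19 and 11 and Gata6 7 and 3. The part of other cell types in the results below was not tested, and in bulk samples more cells that express a gene cannot be told apart from more RNA per cell.

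The promoters of the genes with the largest rises, Lef1 and Axin2, are shown because the factors of this family bind DNA through a short core. RefSeq (build GRCm38.p6) gave 15 promoter windows, from 250 bases before to 50 after a transcript start, for 8 of the 10 genes and none for Axin1 and Znrf3. Capitals mark matches on either strand to CTTTGA, the TCF/LEF core, or to GGGNGTGG, a box of the kind KLF factors bind. The motifs share no match in these windows, and the first was found in 16% and the second in 17.6% of the 32851 RefSeq windows of this length. Lef1 has 4 of the windows, of which the most upstream 2 overlap for most of their length and hold neither motif. Shown for Lef1 are the first of these (chr3:131110047-131110346), the window with a KLF box (chr3:131112541-131112840) and the most downstream one (chr3:131156044-131156343), all on the plus strand, and for Axin2 its single window (chr11:108920099-108920398, plus strand).
Lef1 upstream: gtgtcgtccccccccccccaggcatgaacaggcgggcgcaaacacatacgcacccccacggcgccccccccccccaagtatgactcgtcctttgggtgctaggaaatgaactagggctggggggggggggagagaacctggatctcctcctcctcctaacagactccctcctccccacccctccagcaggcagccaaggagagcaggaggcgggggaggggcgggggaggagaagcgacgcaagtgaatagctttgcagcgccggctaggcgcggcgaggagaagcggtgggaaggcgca
Lef1 middle: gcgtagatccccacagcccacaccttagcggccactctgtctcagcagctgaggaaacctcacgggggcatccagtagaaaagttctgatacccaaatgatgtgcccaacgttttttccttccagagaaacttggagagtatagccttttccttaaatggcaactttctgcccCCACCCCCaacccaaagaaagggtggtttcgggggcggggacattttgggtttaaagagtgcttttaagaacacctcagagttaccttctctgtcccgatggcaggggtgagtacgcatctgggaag
Lef1 downstream: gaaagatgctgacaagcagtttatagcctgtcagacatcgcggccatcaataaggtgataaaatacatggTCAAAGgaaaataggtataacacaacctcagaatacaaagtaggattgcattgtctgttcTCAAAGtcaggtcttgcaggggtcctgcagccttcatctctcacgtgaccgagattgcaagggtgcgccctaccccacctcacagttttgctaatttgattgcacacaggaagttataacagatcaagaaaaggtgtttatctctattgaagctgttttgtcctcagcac
Axin2: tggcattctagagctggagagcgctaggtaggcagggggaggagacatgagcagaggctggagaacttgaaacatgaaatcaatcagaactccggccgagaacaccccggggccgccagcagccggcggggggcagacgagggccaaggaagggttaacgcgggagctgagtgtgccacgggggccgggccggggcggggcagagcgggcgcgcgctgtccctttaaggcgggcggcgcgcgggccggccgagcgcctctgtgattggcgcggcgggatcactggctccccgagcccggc
The core matched in 1 of the 15 member windows, the most downstream one of Lef1, where it occurs at 2 places, beginning 180 and 120 bases before the transcript start. The KLF box matched in 5 of the 15 windows, 1 each of Lef1, Tcf7, Tcf7l1, Ctnnb1 and Nkd1, and not in that of Axin2. A match is a string of letters and not a measured binding site, and the 3' reads do not tell from which start a Lef1 transcript came.

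Of the 10 genes, 8 had enough reads to be tested by edgeR, and among these Lef1, Ctnnb1, Axin2 and Znrf3 rose and Tcf7 fell (adjusted p under 0.05). Tcf7l1, Tcf7l2 and Axin1 did not pass. Across all 11893 genes tested, 47.8% were called, 23.9% as higher and 24% as lower, so nearly as many genes as not were called in this comparison. The levels of the groups did not overlap for 5 of the 8 tested members, the same 5 that were called, against 37.4% of all tested genes. The median log2 fold change of the tested members was 0.165, against 0.01 over all tested genes. Both members left untested, Rnf43 and Nkd1, were low in every library and had lower means in the libraries labelled DKO.

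**Figure D1:**
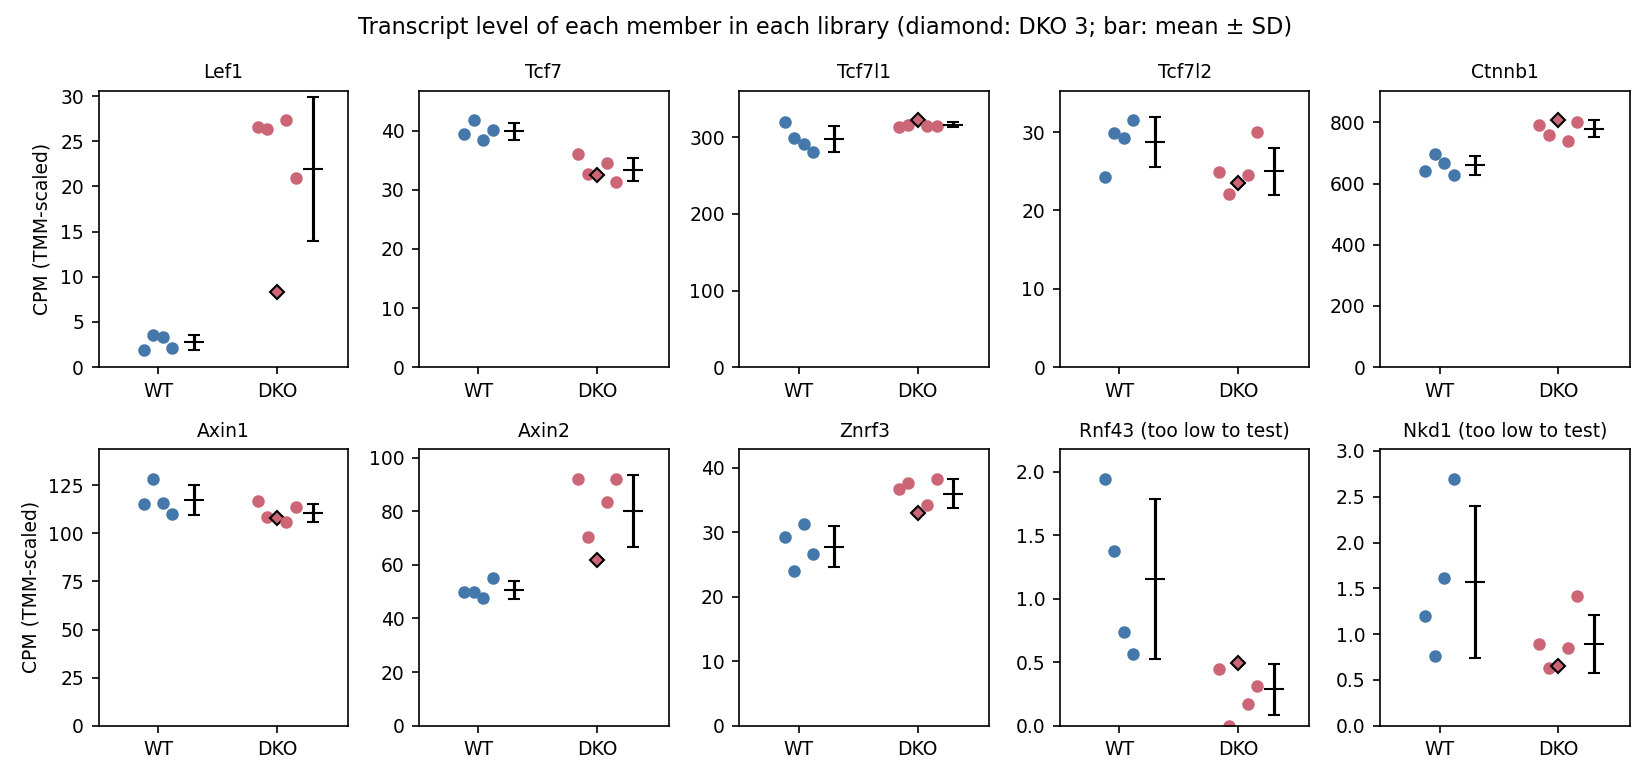
Level of each member in CPM on TMM-scaled library sizes (y axes, linear from 0) in the 4 WT libraries and the 5 labelled DKO (points), with the mean ± SD beside them. DKO 3 is drawn as a diamond: it is the lowest DKO library for Lef1, at 8.37 CPM, and for Axin2, at 61.9 CPM, yet lies above every WT library for both.

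**Figure D2:**
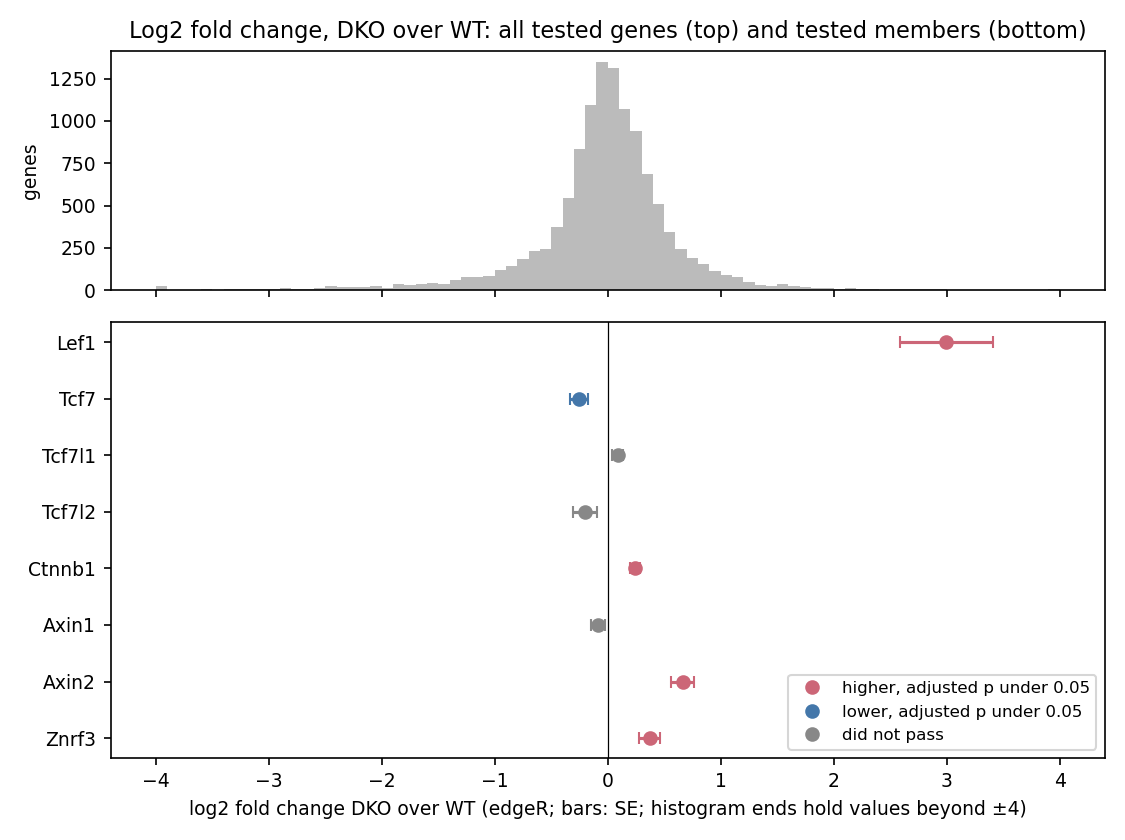
Log2 fold change of DKO over WT (x axis) for all 11893 tested genes as a histogram (top, number of genes) and for the 8 tested members with their SE (bottom). Lef1, at 3.0, lies in the upper tail, while the other 7 lie between -0.26 and 0.66.

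Lef1 (ENSMUSG00000027985, mm10 chromosome 3, 131110471 to 131224356, plus strand), an activating factor of the family, changed most. It gave 13, 23, 23 and 15 counts from WT 1 to 4, and 178, 168, 51, 162 and 133 from DKO 1 to 5. Every library labelled DKO was above every WT library, and DKO 3 had fewer reads than the other 4 by a wide margin. The level went from 2.74 ± 0.817 to 21.9 ± 7.99 CPM (SD, n = 4 and 5), 7.99 times higher. The log2 fold change was 3.0 ± 0.41 (SE, edgeR adjusted p = 0.000245), the 34th largest rise of the 11893 genes. Without DKO 3 it was 3.20 ± 0.18 (edgeR adjusted p = 3.0e-18), within a range of 2.86 to 3.20 and of adjusted p from 3.0e-18 to 0.00215 over 16 alternatives. Its overlapping annotations, Gm42449 on the same strand and Gm43352 on the other, held 19 and 7 counts over all 9 libraries. The 36 tested genes within 5 Mb of Lef1 had a median log2 fold change of 0.03.

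Tcf7 (ENSMUSG00000000782, chromosome 11, 52252371 to 52283014, minus strand), the other factor known mainly as an activator, went the other way by a small amount. It gave 264, 274, 261 and 282 counts from WT 1 to 4, and 241, 209, 198, 205 and 199 from DKO 1 to 5. No library labelled DKO reached the lowest WT library. The level was 39.9 ± 1.43 CPM in WT and 33.4 ± 1.89 in DKO (log2 fold change -0.26 ± 0.08, edgeR adjusted p = 0.0104, with 0.00662 to 0.0339 over 16 alternatives). Of all tested genes, 49.2% had a smaller change in size.

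Tcf7l1 (ENSMUSG00000055799, chromosome 6, 72626378 to 72789254, minus strand), the repressor, was the most abundant of the family. It gave 2137, 1965, 1981 and 1980 counts from WT 1 to 4, and 2101, 2015, 1965, 1866 and 2009 from DKO 1 to 5. On the CPM scale WT 1, at 319.7, lay inside the DKO range of 314.2 to 322.5 and the other WT libraries, at 281.2 to 299.6, below it. The means were 297.9 ± 16.4 and 316.6 ± 3.38 CPM, a log2 fold change of 0.09 ± 0.05 that did not pass (edgeR adjusted p = 0.127, with 0.0567 to 0.394 over 16 alternatives). The 35 tested genes within 5 Mb of it had a median of -0.26, with 51.4% called lower and 2.86% higher, so that Tcf7l1 lay above most of its neighbours.

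Tcf7l2 (ENSMUSG00000024985, chromosome 19, 55741820 to 55933654, plus strand), a factor with many splice forms that can activate or repress, gave 162, 196, 199 and 222 counts from WT 1 to 4, and 167, 141, 143, 145 and 191 from DKO 1 to 5. The groups overlapped because WT 1 (24.2 CPM) was low and DKO 5 (30.0 CPM) high. The means were 28.7 ± 3.14 and 25 ± 3.0 CPM, with a log2 fold change of -0.20 ± 0.10 that did not pass (edgeR adjusted p = 0.110). It passed as lower without WT 1 (log2 fold change -0.28, edgeR adjusted p = 0.0367) and without DKO 5 (-0.28, edgeR adjusted p = 0.0323). Its adjusted p range over 16 alternatives was 0.0323 to 0.274. Tcf7l2 has 20 annotated transcript ends, more than any other member, and one number per gene cannot tell its forms apart.

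Tcf7l1 held most of the reads of the TCF/LEF family in every library, and Lef1 the fewest in WT. Reads at 3' ends stand for transcripts and were therefore compared between genes in CPM without dividing by length. Tcf7l1 made up 80.6% ± 1.62 of the family's counts in the WT libraries (SD, n = 4) and 79.8% ± 2.08 in those labelled DKO (SD, n = 5). Lef1 made up 0.744% ± 0.224 in WT and 5.50% ± 1.97 in DKO, where DKO 3 was lowest at 2.16%. Tcf7 went from 10.8% ± 0.482 to 8.42% ± 0.414, and Tcf7l2 from 7.81% ± 1.09 to 6.30% ± 0.739. Reads of Tcf7l1 per read of Lef1 and Tcf7 together numbered 6.99 ± 0.507 in WT and 5.88 ± 1.20 in DKO. That ratio was between 5.01 and 6.05 in the other 4 libraries labelled DKO, below the WT range of 6.62 to 7.72, but 7.89 in DKO 3, above it. The family's summed level was 354.9 to 385.3 CPM in WT and 386.8 to 401.8 in DKO. These sums and shares follow from the members chosen and were not tested.

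**Figure D3:**
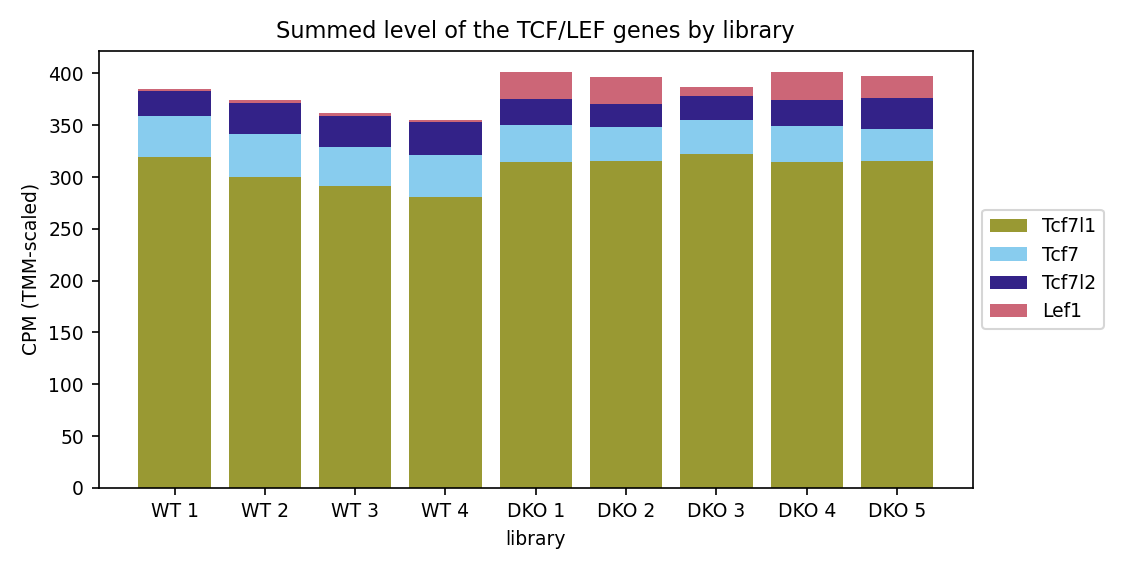
Level of the 4 TCF/LEF genes in CPM (y axis, stacked bars from 0) in each of the 9 libraries (x axis). Tcf7l1 fills most of every bar, and the Lef1 part, under 1% of the reads in each WT library, is 2.16% in DKO 3 and 5.25% to 6.81% in the other libraries labelled DKO.

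Ctnnb1 (ENSMUSG00000006932, chromosome 9, 120929216 to 120960507, plus strand) encodes beta-catenin, the protein that the destruction complex turns over and that also links cadherins to the cytoskeleton. It was the most abundant member, with 4294, 4580, 4549 and 4433 counts from WT 1 to 4, and 5292, 4838, 4920, 4390 and 5112 from DKO 1 to 5. Once scaled to library size every library labelled DKO, at 740.8 to 807.5 CPM, was above the WT libraries, at 629.6 to 698.3. The level rose from 659.6 ± 30.4 to 780.1 ± 29.2 CPM, or 1.18 times (log2 fold change 0.24 ± 0.04, edgeR adjusted p = 2.98e-05). Counts of RNA say nothing of the amount of beta-catenin protein, which the GSK inhibitor is known to raise.

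Axin1 (ENSMUSG00000024182, chromosome 17, 26138688 to 26195811, plus strand), the scaffold present in most cells, gave 772, 843, 788 and 776 counts from WT 1 to 4, and 783, 693, 659, 628 and 724 from DKO 1 to 5. The groups overlapped, at 110.2 to 128.5 CPM in WT and 106.0 to 117.1 in DKO. Its log2 fold change of -0.08 ± 0.06 did not pass (edgeR adjusted p = 0.241, with 0.132 to 0.603 over 16 alternatives).

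Axin2 (ENSMUSG00000000142, chromosome 11, 108920349 to 108950783, plus strand), the scaffold that beta-catenin induces, gave 333, 326, 323 and 389 counts from WT 1 to 4, and 615, 450, 377, 494 and 587 from DKO 1 to 5. The libraries labelled DKO were all above WT in CPM, and DKO 3 was the closest to it, at 61.9 CPM against 55.3 in WT 4. The level rose from 50.6 ± 3.31 to 79.98 ± 13.4 CPM, or 1.58 times (log2 fold change 0.66 ± 0.10, edgeR adjusted p = 1.22e-05). Without DKO 3 it was 0.74 ± 0.08 (edgeR adjusted p = 3.28e-10), and over 16 alternatives it ranged from 0.60 to 0.74. Axin2 made up 30.1% ± 2.36 of the reads of the 2 Axin genes in WT and 41.7% ± 3.66 in DKO, so Axin1 remained the more abundant scaffold in every library.

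Znrf3 (ENSMUSG00000041961, chromosome 11, 5276324 to 5444847, minus strand) encodes a ubiquitin ligase that removes Frizzled receptors from the cell surface. It gave 196, 157, 213 and 187 counts from WT 1 to 4, and 245, 240, 201, 203 and 244 from DKO 1 to 5. On the CPM scale the DKO libraries, at 33.0 to 38.3, did not overlap with WT, at 23.9 to 31.3, and DKO 3 was the lowest of its group. The level rose from 27.8 ± 3.21 to 35.96 ± 2.26 CPM, or 1.29 times (log2 fold change 0.37 ± 0.09, edgeR adjusted p = 0.00116, with 0.000557 to 0.0123 over 16 alternatives).

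Rnf43 (ENSMUSG00000034177, chromosome 11, 87662722 to 87735539, plus strand), the close relative of Znrf3 with the same task, was near the floor. It gave 13, 9, 5 and 4 counts from WT 1 to 4, and 3, 0, 3, 1 and 2 from DKO 1 to 5, so every library labelled DKO was at or under 3 counts and every WT library above. The difference was -0.87 CPM (exact permutation p = 0.00794, 2-sided, unadjusted, and the smallest such a test can give here). Summed over libraries, 31 counts in WT and 9 in DKO gave a ratio of WT over DKO of 3.98 per read sequenced, with an exact 95% interval of 1.85 to 9.51 that covers counting error only. Znrf3 held 93.8% to 97.9% of the reads of this pair in WT and 98.5% to 100% in DKO, so Znrf3 carried nearly all of its transcripts in both groups.

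Nkd1 (ENSMUSG00000031661, chromosome 8, 88521354 to 88594884, plus strand) encodes an inhibitor that binds Dishevelled. It gave 8, 5, 11 and 19 counts from WT 1 to 4, and 6, 4, 4, 5 and 9 from DKO 1 to 5, with overlapping groups and WT 4 well above the rest. Its difference of -0.68 CPM did not pass (exact permutation p = 0.119, 2-sided, unadjusted) and was -0.30 CPM without WT 4 (exact permutation p = 0.321) and -0.95 without WT 2 (exact permutation p = 0.0357). The summed counts, 43 in WT and 28 in DKO, gave a ratio of WT over DKO of 1.77 per read sequenced. Its exact 95% interval of 1.08 to 2.97 covers counting error only and not the spread between libraries. Nkd1 lies in a stretch of chromosome 8 where most genes were lower: of 79 tested genes within 5 Mb, 82.3% were called lower and 2.53% higher, with a median log2 fold change of -0.61. In the edgeR fit without a filter on low counts the log2 fold change of Nkd1 was -0.81 ± 0.44 (edgeR adjusted p = 0.183). For the other 8 members, apart from Tcf7l1 described above, the medians of the neighbours lay between -0.04 and 0.27.

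**Figure D4:**
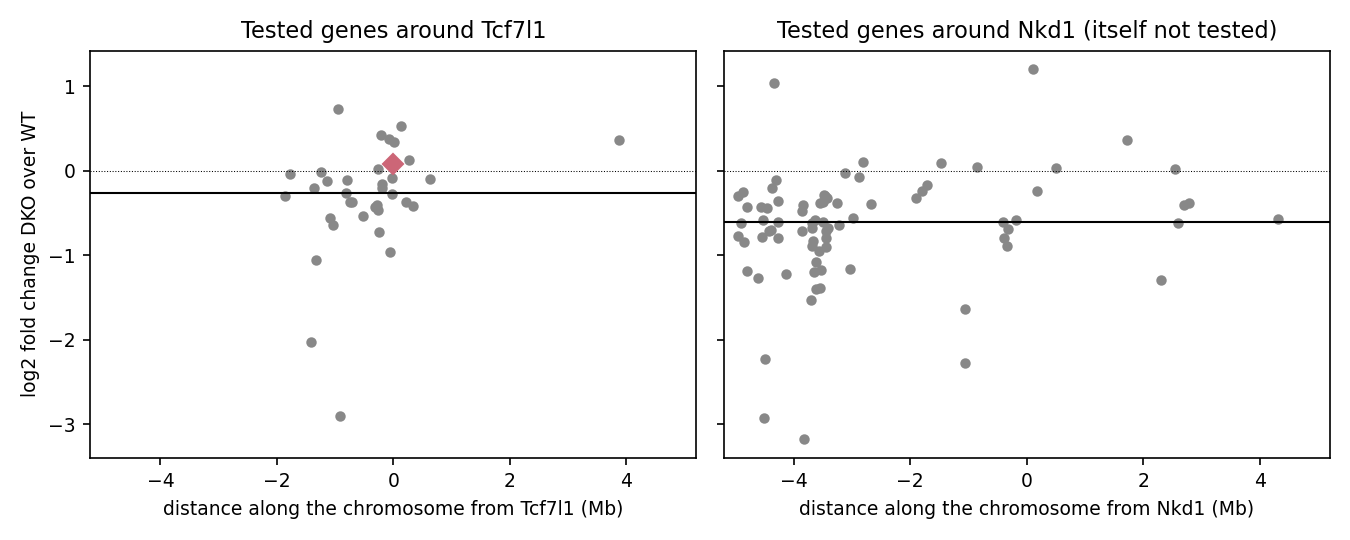
Log2 fold change of DKO over WT (y axis) of tested genes within 5 Mb of Tcf7l1 (left) and Nkd1 (right) against the distance along the chromosome (x axis, Mb), with the median of the neighbours as a solid line. Tcf7l1 (diamond, 0.09) lies above its neighbours' median of -0.26. Nkd1 was not tested, and its neighbours had a median of -0.61.

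In WT the order of levels was Ctnnb1, Tcf7l1, Axin1, Axin2, Tcf7, Tcf7l2, Znrf3, Lef1, Nkd1 and Rnf43. Neighbours in that order were separated in every library except Tcf7l2 and Znrf3 (24.2 to 31.5 and 23.9 to 31.3 CPM), Lef1 and Nkd1 (1.95 to 3.51 and 0.762 to 2.70) and Nkd1 and Rnf43 (0.568 to 1.95 for the latter). In the libraries labelled DKO, Znrf3 stood above Tcf7 and Tcf7l2, though its range overlapped with that of Tcf7 (31.3 to 36.0 CPM). Lef1 (8.37 to 27.3 CPM) overlapped with Tcf7l2 (22.1 to 30.0 CPM) there and no longer with Nkd1 (0.627 to 1.41 CPM).

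Of the genes tested, 178 followed Lef1 with a Pearson r over 0.95 of log2 CPM across the 9 libraries, a description in which the group difference takes the largest part. The 5 closest were Apoe (r = 0.991), which encodes a lipid carrier, Epm2aip1 (0.989), Utrn (0.984), which encodes utrophin, Ifi30 (0.983), a lysosomal reductase, and Tspan9 (0.982), a tetraspanin. They share with Lef1 a rise and a DKO 3 library below the other 4 of its group, a pattern that picking by r over these 9 libraries favours. Apoe had 305.6 to 335.3 CPM in WT, 483.8 in DKO 3 and 588.4 to 637.4 in the other libraries labelled DKO. Tspan9 had 4.94 to 6.17 CPM in WT, 12.8 in DKO 3 and 17.5 to 19.9 in the others.

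The rest of the destruction complex and its regulators went in both directions. Of 16 listed genes 14 were tested, 7 rose and 3 fell, with a median log2 fold change of 0.09. Over all tested genes 23.9% were called higher and 24% lower. The tankyrase Tnks, which marks Axin proteins for degradation, rose from 93.2 ± 1.84 to 152.3 ± 7.87 CPM (0.71 ± 0.06, edgeR adjusted p = 1.18e-12), in a stretch of chromosome 8 where 26 neighbours had a median of 0.75, while Tnks2 (0.07) did not pass. The scaffold Apc (0.27) and Fbxw11 (0.41), a receptor for ubiquitination of beta-catenin, rose and the kinase Csnk1e (-0.38) fell, as log2 fold changes. Gsk3b, a target of the GSK inhibitor, fell from 246.9 ± 13.1 to 212.8 ± 9.77 CPM (-0.21 ± 0.05, edgeR adjusted p = 0.000723) and was singled out after its value was seen.

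Of the partners that TCF/LEF factors and beta-catenin use in the nucleus, 20 of 21 were tested, 6 rose and 4 fell (median log2 fold change 0.09). The shares over all tested genes were 23.9% higher and 24% lower. The acetyltransferase Crebbp (0.40) and the Groucho co-repressor Tle3 (0.33) rose, and the co-repressor Tle4 (-0.29) and the short family member Aes (-0.44) fell, while Tbl1xr1 (-0.04) and Chd8 (-0.02) did not pass. Of 25 other antagonists and agonists of the pathway 10 were tested, 3 rose and 2 fell (median 0.09), beside the same shares over all tested genes. Dact1, a Dishevelled-binding protein like Nkd1, rose from 1.84 ± 0.199 to 10.8 ± 2.38 CPM (2.53 ± 0.22, edgeR adjusted p = 1.34e-11), and Dact2 (0.59) and the R-spondin receptor Lgr4 (0.30) rose. Rspo1 (-1.48), an R-spondin that protects Frizzled from Znrf3, fell, from 1.99 to 0.717 CPM, and the secreted inhibitor Sfrp1 (0.07) did not pass. Sfrp1 lies in a stretch of chromosome 8 where 60 neighbours had a median of 0.45.

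Other genes known as beta-catenin targets went in both directions. Of 10 listed 5 were tested, 1 rose and 3 fell, against 23.9% and 24% of all tested genes, with a median log2 fold change of -0.85. Sp5 rose from 14.0 ± 1.61 to 20.3 ± 5.41 CPM (0.54 ± 0.17, edgeR adjusted p = 0.00916), though DKO 3, at 11.5 CPM, was below every WT library. Ccnd1 (-3.81), Ascl2 (-1.50) and Myc (-0.85) fell, Myc with overlapping groups of 3.56 ± 1.64 and 1.99 ± 0.548 CPM. Genes known to be restrained by TCF7L1 in embryonic stem cells were all tested: of 6, 5 rose, against 23.9% of all tested genes, and Nr5a2 (-0.03) did not pass, with a median of 0.26. The list was chosen with earlier results of these data known, so this count is a description and not a test. It shares Esrrb, Tfcp2l1 and Nanog with the stem cell markers above. One of the 5 is Klf2, a gene the knockout is named for, whose 3' counts could not check the label. Tfcp2l1 (0.49), Klf2 (0.42), Esrrb (0.28) and Nanog (0.22) were among those that rose, beside the level of Tcf7l1 that did not pass. Klf2 and Nanog lie in stretches where the neighbours' medians were 0.35 and 0.35.

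**Figure D5:**
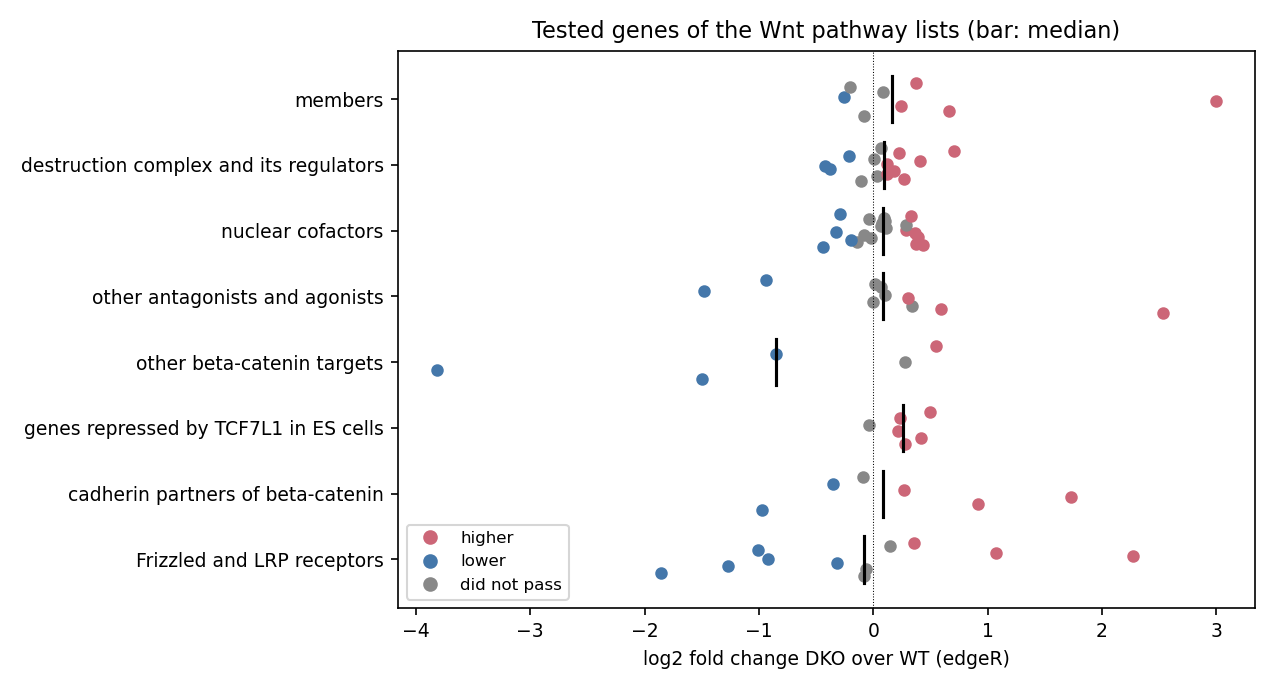
Log2 fold change of DKO over WT (x axis) of each tested gene in the members and in 7 lists of the Wnt pathway (rows), coloured by whether it was called higher, lower or did not pass, with the median as a bar. Most medians lie near 0, that of the other beta-catenin targets is -0.85 and that of the genes restrained by TCF7L1 is 0.26.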

How the data were processed

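The deposited table holds raw exon counts for Ensembl genes, in whole numbers and 1 column for each of 9 libraries (600 ng of total RNA each, per the labels). The submitters' processing notes name mm10 as build and list cutadapt, STAR, featureCounts and DESeq2. Tool versions, annotation, strand setting and multi-mapped read handling were not given in the sources used here, so antisense and same-strand overlaps are uncertain. Identifiers were matched to GENCODE mouse release 21 (52403 of 52550).

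Genes were kept with filterByExpr, scaled by TMM and tested with the robust quasi-likelihood test of edgeR 4.0.16 (R 4.3.3), modelling the genotype label alone, and Benjamini-Hochberg adjustment over all 11893 genes. An adjusted p under 0.05 counts as passing. The SE is the log2 fold change divided by the square root of F. Members dropped by the filter were compared by 2-sided exact permutation tests of CPM. The fit was tested on simulated data with known changes. It recovered 18 of 50 changes of 1.25 times, 37 of 49 of 1.5 times, 45 of 48 of 2 times and 49 of 49 of 4 times. Small changes that did not pass may therefore have been missed. Pairs of libraries within a group differed by a chi-square per degree of freedom of 2.22 to 4.98, so all were counted separately. Alternatives were DESeq2 1.42.0, other scalings and filters, a replicate block and leaving out each library.

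All 10 members are named, with up to 4 passing genes of smallest adjusted p and up to 2 abundant genes (50 CPM or more) that did not pass from each list, and the 5 genes most like Lef1. The members and lists were chosen with earlier results of these data known.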

Additional observations from a re-analysis of the deposited data

Results flagged for a closer look

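Tcf7l1 in DKO 3, at 322.5 CPM, stood apart from the other 4 libraries labelled DKO, which lay between 314.2 and 315.7 CPM. The gap was 0.812 of the group's range, above the limit of 0.71 for 5 samples. Chance alone marks about 1 in 20 groups in this way, and 20 groups of member levels were examined. The whole range is small beside the WT range of 281.2 to 319.7 CPM.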

How the results depend on the processing

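The same 5 members were called, in the same direction, under each of 16 alternatives for the 8 members tested, and no member changed sign. The number called lower was 1 in the reported fit and 2 with DESeq2 and with no filter on low counts, where Rnf43 joined Tcf7. It was also 2 with the replicate block, where Tcf7l2 joined (log2 fold change -0.27, edgeR adjusted p = 0.0335). Number 5 exists only among the libraries labelled DKO, so in the block DKO 5 could not bear on the fold change. Leaving out DKO 5 gave Tcf7l2 a similar value (-0.28, edgeR adjusted p = 0.0323). Leaving out 1 library gave 1 to 2. Without a filter, Rnf43 was at -1.94 ± 0.61 on the log2 scale (edgeR adjusted p = 0.00816). The deviations of same-numbered libraries correlated at 0.0103 to 0.0701, with 3 of 4 WT libraries closest to their own number, and the block gave 2746 higher and 2784 lower calls over all genes. The difference of Nkd1 ran from -0.95 to -0.30 CPM when 1 library was left out. Scaling moved the median of all genes by 0.0064 or less on the log2 scale. Depth limits the low members: Rnf43, at or under 3 counts in every library labelled DKO, and Nkd1, at 4 to 19 counts in all 9 libraries, have wide intervals.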

Other observations

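Wnt receptors, which Znrf3 and Rnf43 act on, went in both directions. Of 12 Frizzled and LRP receptors 11 were tested, 3 rose and 5 fell (median log2 fold change -0.08, against 0.01 over all tested genes). Over all tested genes 23.9% were called higher and 24% lower. Fzd7 rose from 7.52 ± 0.859 to 36.4 ± 5.32 CPM (2.27 ± 0.13, edgeR adjusted p = 1.61e-16) and the co-receptor Lrp6 rose (0.35), where the neighbours on chromosome 6 had a median of 0.35. Fzd2 fell from 26.3 ± 4.01 to 7.19 ± 3.0 CPM (-1.85 ± 0.21, edgeR adjusted p = 8.53e-07), as did Fzd5 (-0.32), the most abundant receptor of the list, while Fzd10 (-0.08) did not pass.

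Of 7 junction partners of beta-catenin 6 were tested, 3 rose and 2 fell, against 23.9% and 24% of all tested genes (median 0.09). Cdh1, or E-cadherin, fell from 2724 ± 97.6 to 1390 ± 139.5 CPM (-0.97 ± 0.06, edgeR adjusted p = 1.26e-12), in a part of chromosome 8 where 94 neighbours had a median of -0.63. Cdh3, or P-cadherin, lies in the same part (93 neighbours, median -0.64) and rose from 5.79 ± 1.06 to 19.3 ± 3.70 CPM (1.73 ± 0.16, edgeR adjusted p = 8.14e-11). Ctnna1 (0.27), which encodes alpha-catenin, rose and Ctnnd1 (-0.36) fell, and Jup (-0.09) did not pass.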
